A study of Caenorhabditis elegans with 40 samples.

Results

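The change in gene expression between young and old wild-type *Caenorhabditis elegans* was measured at 20°C and at 25°C, and the interaction of age and temperature, which is the difference between those 2 changes, is described here. It was taken over the 4 wild-type groups of the study, chosen by their labels, which make 20 of its 40 samples. All 4 groups were whole animals of the N2 strain fed *E. coli* OP50, with 5 samples each. They were young animals propagated at 20°C, 9-day-old animals propagated at 20°C, young animals propagated at 25°C and 9-day-old animals propagated at 25°C. The labels call both young groups 0-day-old young adults, whereas the study's methods call them 1-day-old. The old animals were washed daily and kept apart from their progeny with a nylon strainer. By the study's methods each synchronized population gave young animals first and old animals later, but no source ties the replicate numbers to a population. No source says that the 5 samples of a group came from separate cultures, so p-values measure only the spread between these samples, which may be technical.

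*C. elegans* is an ectotherm whose development, egg laying and ageing all run faster when it is warmer. A hermaphrodite makes sperm in the last larval stage and then switches to oocytes, and its intestine secretes yolk proteins that the oocytes take up. Its body is covered by a collagen cuticle that the epidermis builds anew before each molt and for the last time before adulthood. An interaction of age and temperature is therefore read below by tissue, from lists of genes that mark the cuticle, the sperm, the oocytes, the intestine, the muscles and the neurons.

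The total of gene fragments per sample ran from 24348289 to 36883662 (median 26364447), and 15616 genes passed the filter on low counts. Levels are given as CPM, the fragments of a gene per 1000000 fragments of the sample after TMM scaling. On log2(CPM + 1) the first principal component held 85.9% of the variance and set the young animals at 20°C apart from the other 3 groups, and the second, with 9.73%, set the young animals at 25°C apart. Within its group, replicate 2 of the young animals at 20°C had the lowest correlation with the rest (r = 0.9885 across genes, against 0.9942 or more for the other 19 samples). The 4 tested vitellogenin genes summed to 180 CPM in that sample and to 1434, 1513, 2411 and 2884 CPM in the rest of its group. Its 16 collagen genes of body shape summed to 21868 CPM, against 10558 to 13724 CPM. Without that sample 5027 genes were called higher and 3463 lower in the interaction described next, against 4999 and 3427 with all 20 samples, and 8280 genes were called in both with the same sign.

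The interaction was tested with edgeR's quasi-likelihood F test and is given on the log2 scale as the change from young to old at 25°C minus the change from young to old at 20°C. A gene was called when its adjusted p was under 0.05 and the interaction was at least 1 in size. It was called higher for 4999 of the 15616 genes (32.0%), whose change with age was more upward at 25°C, and lower for 3427 genes (21.9%). Of the called genes 59.3% were higher, and with upper-quartile scaling 70.5% were. That scaling moved the median interaction of all genes from 0.07 to 0.38. In 1209 called genes the interaction was at least 5 in size.

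Most genes with a called interaction changed more with age at 20°C than at 25°C. Between young and old animals at 20°C, 4167 genes (26.7%) rose and 5711 (36.6%) fell. At 25°C, 1563 genes (10%) rose and 2563 (16.4%) fell. The change with age was larger at 20°C than at 25°C in 7489 (88.9%) of the 8426 genes with a called interaction. Their median change with age had a size of 2.3 at 20°C and of 0.61 at 25°C. By the definition of the interaction the same genes also differ in their response to temperature. Between 20°C and 25°C, 3405 genes (21.8%) were higher and 5379 (34.4%) lower in young animals kept at 25°C. In old animals 317 genes (2.03%) were higher and 727 (4.66%) lower at 25°C.

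**Figure D1:**
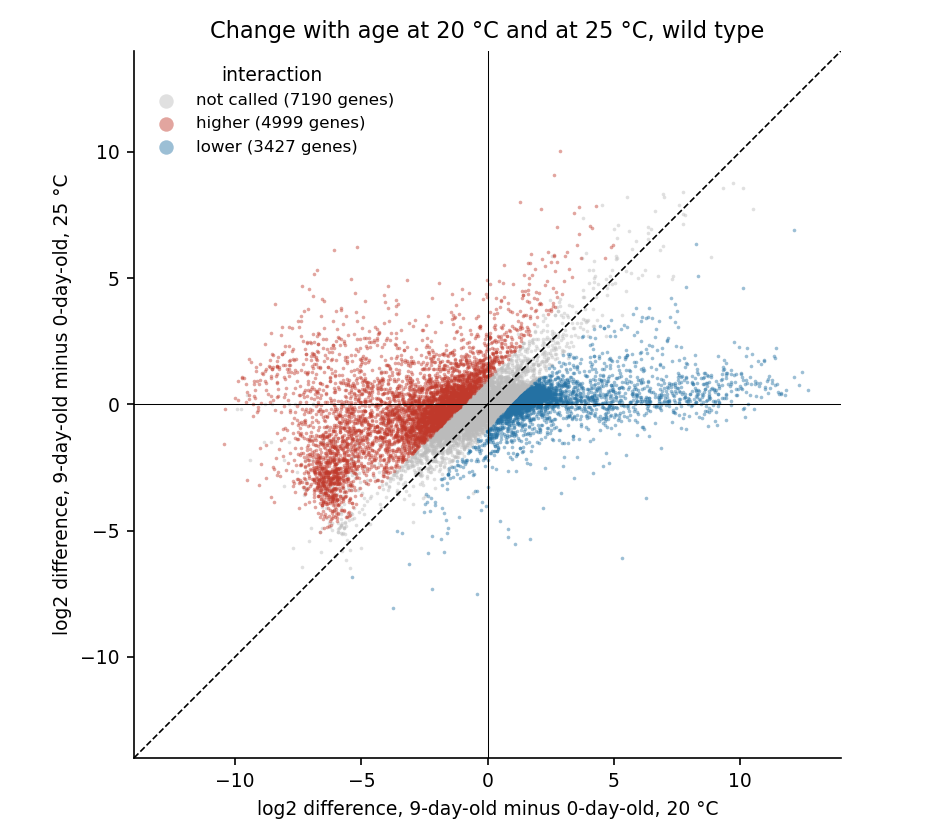
Each point is 1 of 15616 genes, with its log2 difference between 9-day-old and young wild-type animals at 20°C on the x axis and at 25°C on the y axis, and the dashed line marks equal changes. Red and blue points are the 4999 genes called higher and the 3427 called lower in the interaction, grey points were not called, and the spread is wider along the 20°C axis than along the 25°C axis.

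The shapes of the called interactions fell into few classes. Of the 4999 genes called higher, 2524 (50.5%) fell with age at 20°C and were not called with age at 25°C, 1362 (27.2%) fell at both temperatures but further at 20°C, and 409 (8.18%) fell at 20°C and rose at 25°C. Of the 3427 genes called lower, 2679 (78.2%) rose with age at 20°C and were not called at 25°C, 253 (7.38%) rose at both, and 84 (2.45%) rose at 20°C and fell at 25°C. The groups were also compared by their mean levels, with a group said to stand apart when its mean was at least 1 log2 unit beyond the other 3 and those 3 lay within 1 log2 unit of each other. Young animals at 20°C stood apart as the high group for 2072 genes (24.6% of the 8426) and as the low group for 2196 (26.1%). Young animals at 25°C stood apart for 60 genes as the high and 199 as the low group. Old animals at 20°C did so for 36 and 12 genes, and old animals at 25°C for 13 and 25. No single group stood apart for the other 3813 genes (45.3%).

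**Figure D2:**
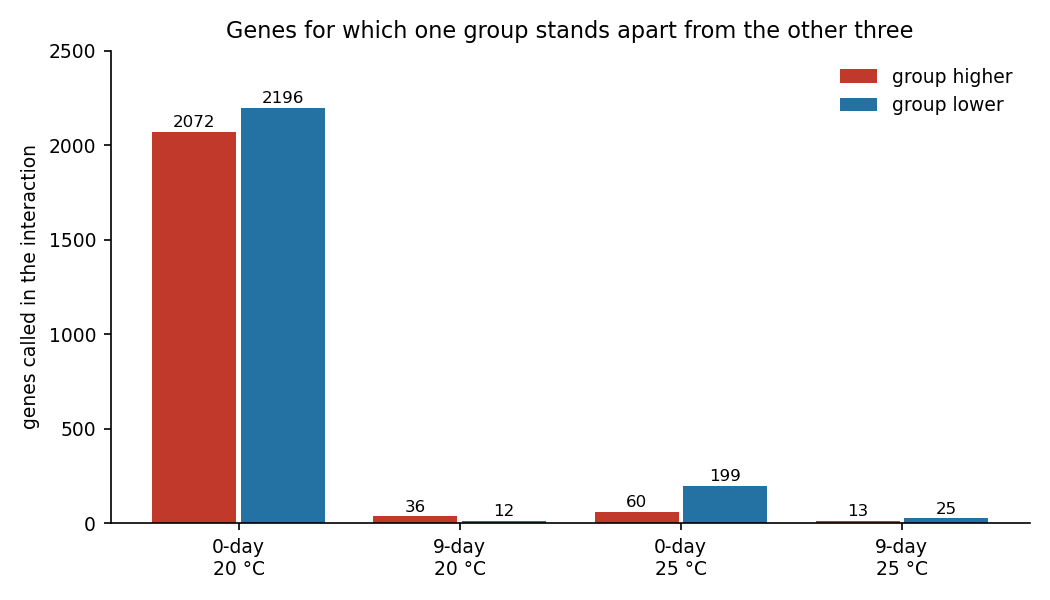
Bars count the genes with a called interaction for which 1 group's mean level lay at least 1 log2 unit above (red) or below (blue) the other 3 groups, which lay within 1 log2 unit of each other. Young animals at 20°C hold 2072 and 2196 of these genes, and each other bar holds at most 199.

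The 8 genes named for the largest positive interactions were 6 *col* collagens, the cuticlin gene *cut-2* and *abu-14*, a gene of a family found in the pharyngeal cuticle. The body-shape collagens, a list of 16 genes whose mutants are dumpy, roller, blistered or long, had a median interaction of 8.70. Of these, 14 (87.5%) were called higher, beside 32.0% over all genes, and 2 (12.5%) lower, beside 21.9%. Their median change with age was -7.26 at 20°C, with 14 of 16 falling, and 1.42 at 25°C, with 12 rising. Over all genes tested these medians were -0.16 and -0.02. Of all genes 26.7% rose and 36.6% fell with age at 20°C, and 10% rose and 16.4% fell at 25°C. Counts of list members, here and below, are to be read beside these shares over all genes. Summed over the list, the level was 10558 to 21868 CPM in young animals at 20°C and 89.3 to 98.8 CPM in young animals at 25°C, and in old animals it was 172 to 246 CPM at 20°C and 128 to 168 CPM at 25°C. Whole animals were sequenced, so fewer cells of a type and less RNA per cell cannot be told apart, here and for every tissue below.

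The collagen gene *dpy-5* was measured at 1592, 2409, 1621, 1238 and 1230 CPM in the 5 samples of young animals at 20°C and at 9.79, 4.7, 10.5, 4.93 and 4.97 CPM in old animals at that temperature. At 25°C it was at 1.4, 1.73, 1.69, 1.86 and 0.844 CPM in young and 5.08, 5.43, 6.9, 2.81 and 4.78 CPM in old animals. Every young sample at 20°C lay far above all other samples, and the old samples at 25°C lay above the young ones. The interaction was 9.58 ± 0.46 (± SE, here and below; adjusted p = 1.3e-12). The collagen *dpy-4*, at 1744 ± 691 CPM (mean ± SD, n = 5) in young animals at 20°C and 2.14 ± 0.704 CPM at 25°C, had an interaction of 9.34 ± 0.51, and *sqt-3*, a collagen required for viability as well as shape, one of 5.87 ± 0.31. The exception named by the same rule was *dpy-17*, which had an interaction of -3.17 ± 0.15 and rose from 3.21 ± 0.623 to 57.8 ± 3.25 CPM with age at 20°C and from 20.4 ± 3.67 to 41 ± 3.45 CPM at 25°C.

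Among the large *col* family of cuticle collagens, 127 of 155 genes were tested, 82 were called higher, beside 32.0% over all genes, and 26 lower, beside 21.9%. The median interaction was 4.55. It was 3.95 when groups without fragments were set to 3 fragments. Among the tested members 104 fell and 13 rose with age at 20°C, and 48 fell and 17 rose at 25°C. A member of high level was *col-73* (chromosome II, 4872212 to 4873121 in ce10). Its level in young animals at 20°C was 4074, 6951, 4159, 3609 and 3311 CPM, and in old animals 16.5, 6.98, 13.2, 7.23 and 6.46 CPM. At 25°C it was 3.36, 2.25, 4.73, 3.91 and 2.16 CPM in young and 10.5, 8.07, 12.7, 3.36 and 8.42 CPM in old animals. All samples outside the young 20°C group lay under 20 CPM, and replicate 2 was the highest within it. The interaction was 10.16 ± 0.53 (adjusted p = 5.6e-12).

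The family's other extremes lay in the same group. The members *col-49*, *col-175*, *col-138*, *col-88* and *col-115* were among the 8 named for the largest positive interactions, with 10.84 ± 0.64, 10.77 ± 0.55, 10.35 ± 0.59, 10.26 ± 0.92 and 10.19 ± 0.47. They stood at 1673, 1753, 2448, 955 and 135 CPM on average in young animals at 20°C, and each was under 4 CPM on average in the other 3 groups. Named for the smallest p were *col-113*, at 234 ± 16.6 CPM in young animals at 20°C and between 2.02 and 2.53 CPM in the other group means (interaction 6.26 ± 0.13, adjusted p = 3e-22), *col-135* and *col-89* (interaction 6.15 ± 0.24).

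Not all collagens followed this pattern, and some were highest in young animals at 25°C. *col-135* (chromosome IV, 15129727 to 15131754) was measured at 0.264, 0.0399, 0.433, 0.345 and 0.637 CPM in young and 27.9, 31.4, 28.6, 27.2 and 20.4 CPM in old animals at 20°C. At 25°C it was at 148, 173, 174, 158 and 140 CPM in young and 12, 11.6, 10.8, 12.6 and 12.6 CPM in old animals. It was thus lowest in young animals at 20°C and highest in young animals at 25°C, with no overlap between any 2 groups. It rose with age at 20°C by 6.27 ± 0.2 and at 25°C its change was -3.73 ± 0.12, which gave an interaction of -10 ± 0.23 (adjusted p = 1e-19). The genes *col-101* and *col-143* were also lowest in young animals at 20°C and highest in young animals at 25°C, with 10.5 ± 3.17, 192 ± 44.3, 1870 ± 156 and 279 ± 16.1 CPM for *col-101* in young and old animals at 20°C and then young and old animals at 25°C. Their interactions were -6.93 ± 0.24 and -7.02 ± 0.47. The abundant *col-124* fell with age at both temperatures, with changes of -3.13 at 20°C and -6.34 at 25°C, and was called lower with -3.22 ± 0.39.

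Furrow collagens and some enzymes of cuticle assembly were also called higher. Of the 6 collagens of the cuticle's furrows 5 (83.3%) were called higher, beside 32.0% over all genes (median 3.0). Among them were *dpy-2*, *dpy-8* and *dpy-7*, at 2.27 ± 0.24, 3.89 ± 0.35 and 4.0 ± 0.35, while *dpy-10* had 0.56 ± 0.16 and was not called. Of 12 genes for enzymes that fold, cut or crosslink collagens 6 (50%) were called higher and 6 were not called (median 0.99). These included the prolyl hydroxylase gene *phy-2* at 1.32 ± 0.14, the dual oxidase maturation factor gene *doxa-1* at 1.92 ± 0.23, and the thioredoxin gene *dpy-11* at 1.03 ± 0.16, which stood at the size threshold. It was not called without replicate 1 or 2 of the young animals at 20°C or without replicate 1, 2 or 3 of the old animals at 25°C (lowest 0.93). The disulfide isomerase gene *pdi-2* had 0.86 ± 0.082 and the proprotein convertase gene *bli-4* -0.03 ± 0.099, and neither was called.

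Of 28 tested genes of molting and apical matrix, 19 (67.9%) were called higher, beside 32.0% over all genes, and 3 (10.7%) lower, beside 21.9% (median 1.77). The cuticlin gene *cut-2* (chromosome V, 13415087 to 13415923) had the largest positive interaction of the genes named by size. It was at 248, 424, 257, 248 and 200 CPM in young and 3.17, 1.37, 3.26, 1.82 and 1.76 CPM in old animals at 20°C. At 25°C it was at 0.16, 0.161, 0.338, 0.182 and 0.141 CPM in young and 4.4, 3.57, 3.55, 3.68 and 4.29 CPM in old animals. It fell with age at 20°C and rose with age at 25°C, where young and old samples did not overlap, and the interaction was 11.20 ± 0.45 (adjusted p = 5.5e-14). The metallopeptidase-like gene *acn-1*, required for molting, stood at 255 ± 63.2 CPM in young animals at 20°C and had an interaction of 4.33 ± 0.21. In the opposite direction stood *egg-6*, an epithelial matrix gene (59.5 ± 2.6 CPM in young and 555 ± 27.4 CPM in old animals at 20°C, interaction -2.99 ± 0.071), and the mucin-like *let-653* (-2.35 ± 0.14).

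Hedgehog-related genes encode secreted proteins and Patched-like receptors that *C. elegans* uses in its epidermis. Of 63 tested, 45 (71.4%) were called higher and 6 (9.52%) lower, with a median of 3.64. Among the secreted members *grl-16* was at 1351 ± 435 CPM in young animals at 20°C and at 1.03 ± 0.548 CPM in young animals at 25°C (interaction 10.09 ± 0.5). Among the receptors *ptr-1*, *ptr-4* and *ptr-23* had 4.98 ± 0.2, 6.43 ± 0.27 and 2.29 ± 0.099, whereas *ptr-2* had -1.54 ± 0.12. Of 30 astacin metalloproteases 19 (63.3%) were called higher and 3 (10%) lower (median 3.36). Among them *nas-36*, a protease of molting, was at 72.4 ± 6.25 CPM in young animals at 20°C and 2.4 to 2.5 CPM in the other group means (interaction 4.81 ± 0.15). The *abu* and *pqn* genes encode glutamine- and asparagine-rich proteins, of which several line the pharyngeal cuticle. Of 63 tested, 31 (49.2%) were called higher and 8 (12.7%) lower (median 1.36), beside 32.0% and 21.9% over all genes. Those named for the highest level, *pqn-59* and *pqn-65*, were called lower, at -1.23 ± 0.096 and -1.76 ± 0.11. The list's summed level was 4587 to 6086 and 4493 to 4795 CPM in young and old animals at 20°C. At 25°C it was 4658 to 4962 and 4309 to 5222 CPM.

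**Figure D3:**
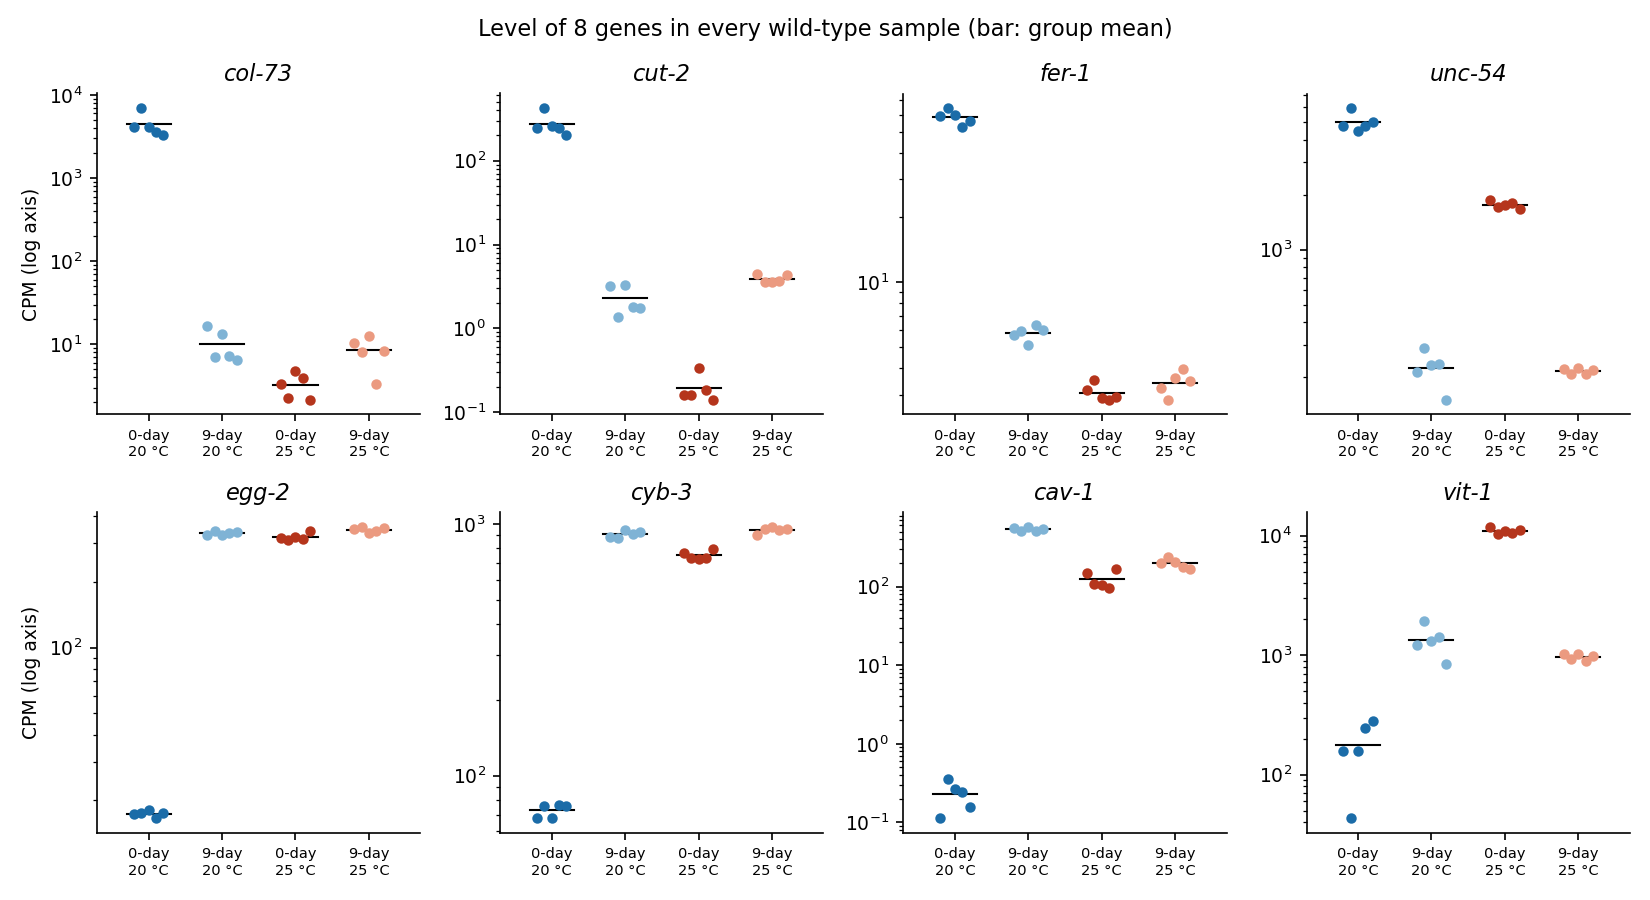
CPM of 8 genes (log axis) in each of the 20 wild-type samples, with a bar at the mean of each group of 5. The cuticle genes *col-73* and *cut-2*, the sperm gene *fer-1* and the myosin gene *unc-54* are highest in young animals at 20°C, the oocyte gene *egg-2*, the cyclin gene *cyb-3* and the caveolin gene *cav-1* are lowest there, and *vit-1* is highest in young animals at 25°C.

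Most sperm genes fell further with age at 20°C than at 25°C. Of 24 tested genes needed to make or activate sperm, 19 (79.2%) were called higher, beside 32.0% over all genes, and 1 (4.17%) lower, beside 21.9% (median 3.15). With age 19 fell at 20°C and 13 at 25°C, beside 36.6% and 16.4% of all genes. The gene *fer-1*, for a ferlin of the sperm's membranous organelles, was measured at 59.1, 64.3, 59.5, 52.5 and 56.1 CPM in young and 5.72, 5.97, 5.12, 6.38 and 6.03 CPM in old animals at 20°C. At 25°C it was at 3.16, 3.53, 2.91, 2.86 and 2.95 CPM in young and 3.24, 2.86, 3.59, 3.96 and 3.48 CPM in old animals. Young animals at 20°C were high, and the groups of young and old animals at 25°C overlapped. The interaction was 3.46 ± 0.13 (adjusted p = 2e-17), and for *spe-26*, a kelch protein of spermatogenesis, it was 3.89 ± 0.2. The exception was *spe-39*, which acts in vesicle traffic in other cells too (-1.45 ± 0.055).

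The major sperm protein genes and the *ssp*, *ssq* and *nspd* families, which are made in late spermatogenesis, fell with age at both temperatures. Of 52 tested, 51 fell at 20°C and 49 at 25°C, beside 36.6% and 16.4% of all genes. Their summed level was 2692 to 3199 CPM in young animals at 20°C, 313 to 504 CPM in young animals at 25°C, 20.4 to 102 CPM in old animals at 20°C and 20.7 to 26 CPM in old animals at 25°C. The median interaction was 1.22, and 30 genes were not called. The interaction was called higher for 21 (40.4%), beside 32.0% over all genes, and lower for 1 (1.92%), beside 21.9%. The count depended on a single library, since 39 were called higher without replicate 2 of the old animals at 20°C. Many of these genes are near-identical copies, whose fragments the counting could have divided among them. The gene *ssq-2* was at 222, 238, 229, 159 and 234 CPM in young and 2.86, 7.16, 4.89, 3.27 and 1.14 CPM in old animals at 20°C. At 25°C it was at 32.8, 37.3, 32.4, 38.9 and 22.9 CPM in young and 0.489, 1.09, 1.16, 1.15 and 0.869 CPM in old animals. Each group was separate from the other 3 but for 1 old sample at 20°C, which lay within the range of the old animals at 25°C, and the interaction of 0.68 ± 0.51 was not called (adjusted p = 0.23). It was called at 1.03 without replicate 2 of the old animals at 20°C. The related *ssq-4* was called at 1.19 ± 0.41 (adjusted p = 0.013), but not without replicate 5 of the old animals at 20°C (0.96).

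Genes of oocytes and eggshell had the opposite interaction. Of 32 genes that act in oocytes, the eggshell or the early embryo, 31 were called lower, beside 21.9% over all genes, with a median of -3.41. All 32 rose with age at 20°C (median 3.60), whereas none was called with age at 25°C by edgeR, DESeq2 or limma voom (median 0.13). At an unadjusted p under 0.05, 22 had a change with age at 25°C of under 1 in size. Young animals at 20°C stood apart as the low group for 31 of them. The summed level was 1912 to 2358 CPM in that group and 23309 to 25099 CPM in young animals at 25°C.

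The sperm receptor gene *egg-2* (chromosome III, 7058582 to 7060520), which acts on the oocyte surface, was at 17.3, 17.5, 18, 16.6 and 17.6 CPM in young and 327, 339, 327, 333 and 338 CPM in old animals at 20°C. At 25°C it was at 315, 310, 321, 312 and 339 CPM in young and 347, 357, 335, 339 and 351 CPM in old animals. The samples of young animals at 20°C varied little among themselves and lay below all others. The interaction was -4.14 ± 0.051 (adjusted p = 1.2e-25). The eggshell chitin synthase gene *chs-1* had -3.73 ± 0.064, the germline determinant *nos-2* -4.60 ± 0.079, the eggshell chondroitin proteoglycan gene *cpg-2* -3.84 ± 0.12 and the eggshell chitin-binding gene *cbd-1* -4.29 ± 0.089. The caveolin gene *cav-1*, expressed in the germline, had the largest negative interaction of the genes named by size. It was at 0.113, 0.359, 0.267, 0.241 and 0.159 CPM in young and 564, 517, 581, 516 and 540 CPM in old animals at 20°C. At 25°C it was at 150, 108, 106, 97.3 and 170 CPM in young and 199, 236, 206, 180 and 168 CPM in old animals. The level in young animals at 20°C never reached 1 CPM, and old animals at 20°C were higher than either group at 25°C. The interaction was -10.54 ± 0.29 (adjusted p = 9e-17).

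Genes of cell division moved the same way. Of 33 genes of the cell cycle and DNA replication 31 (93.9%) were called lower, beside 21.9% over all genes (median -2.05). All 33 rose with age at 20°C. None was called with age at 25°C by edgeR, DESeq2 or limma voom, and 23 had an unadjusted p under 0.05 there. The cyclin B3 gene *cyb-3* was at 67.7, 76, 67.8, 76.5 and 75.9 CPM in young and 891, 879, 947, 910 and 930 CPM in old animals at 20°C. At 25°C it was at 765, 730, 724, 733 and 797 CPM in young and 903, 954, 976, 943 and 957 CPM in old animals. Young animals at 20°C were low, and young animals at 25°C lay below all old samples but far nearer to them (interaction -3.31 ± 0.064, adjusted p = 1.3e-22). The replication helicase gene *mcm-3* had -2.72 ± 0.065, the cyclin B gene *cyb-2.2* -3.07 ± 0.066 and the topoisomerase gene *top-2* -1.43 ± 0.069.

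Of 22 tested meiosis genes 6 (27.3%) were called lower, a share near the 21.9% of all genes (median -0.91), among them the checkpoint gene *pch-2* (-1.80 ± 0.087) and the chromosome pairing genes *him-8* (-1.61 ± 0.1) and *zim-1* (-1.13 ± 0.064). The axis gene *him-3* and the cohesin gene *rec-8* had -0.44 ± 0.061 and -0.83 ± 0.061, under the size threshold. Of 13 tested P granule and germline small RNA genes 7 (53.8%) were called lower. The P granule assembly genes *meg-1* and *meg-2*, made late in oogenesis, had -6.01 ± 0.11 and -5.98 ± 0.095. The Argonaute gene *wago-1* had -1.41 ± 0.059 and *pgl-1*, a constitutive P granule component, -0.59 ± 0.066. Among 13 tested genes of early embryonic fate 9 (69.2%) were called lower and 2 (15.4%) higher. The homeobox gene *pal-1*, whose mRNA is stored in oocytes, had -2.64 ± 0.077 and *vet-2*, an early embryonic transcript, -5.41 ± 0.21. The early embryonic factor gene *nhr-2* stood at 0.288 ± 0.0882 CPM in young animals at 20°C and at 42.2, 29.4 and 33.2 CPM in the other groups (interaction -7.0 ± 0.13).

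Several *skr* genes, which encode Skp1-related subunits of ubiquitin ligases, had no or few fragments in young animals at 20°C. Of 19 tested 11 (57.9%) were called lower, beside 21.9% over all genes, and 1 (5.26%) higher, beside 32.0%. No fragment of *skr-8* was found in any of the 5 samples of young animals at 20°C. It was at 31.8, 28.7, 30.9, 30.7 and 34.7 CPM in old animals at 20°C, at 17.3, 11.6, 9.88, 10.1 and 17.2 CPM in young animals at 25°C and at 19, 24.5, 21, 15.9 and 17 CPM in old animals at 25°C. Against 3 fragments in the median young sample at 20°C, it was at least 277-fold higher in old animals at 20°C and at least 117-fold higher in young animals at 25°C. Its neighbour *skr-9*, a close copy with which it may share fragments, was likewise at 0 in young animals at 20°C and at least 219-fold and 80.5-fold higher in those groups. The abundant members *skr-1* and *skr-2*, which serve the ubiquitin ligases of most cells, had -0.30 ± 0.06 and -0.78 ± 0.059. Besides these, C08F1.10 and the neuropeptide gene *nlp-39* were the most abundant called genes with no fragment in a group. C08F1.10 was at least 236-fold higher in old than in young animals at 20°C, and *nlp-39* at least 188-fold. *nlp-39* had a mean of 0.0275 CPM in young and 3.64 CPM in old animals at 25°C.

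**Figure D4:**
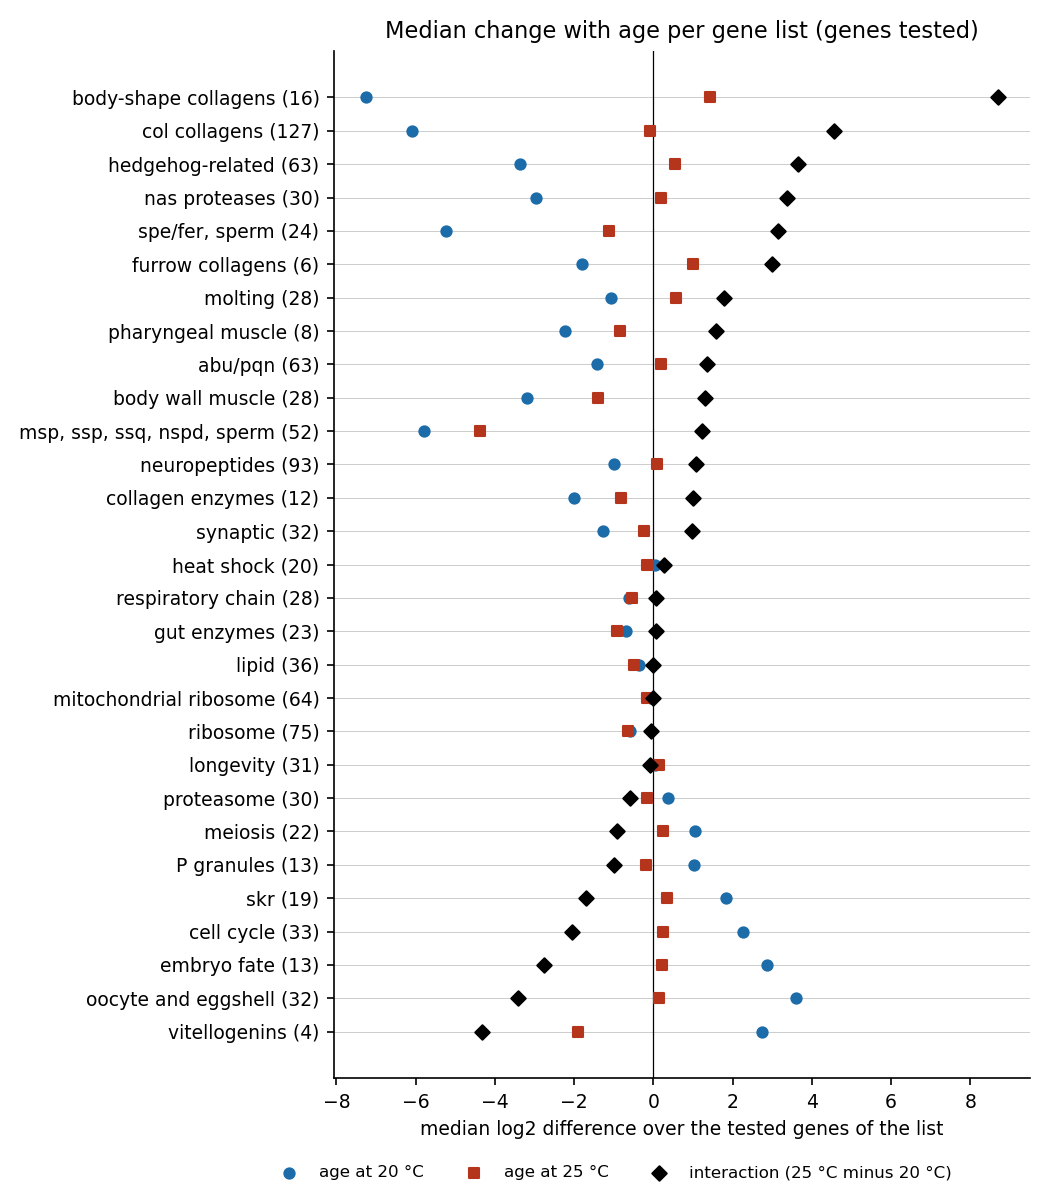
Median log2 change with age at 20°C (blue circles) and at 25°C (red squares), and median interaction (black diamonds), over the tested genes of 29 lists, with the number tested in parentheses. Cuticle, sperm and muscle lists lie to the right in the interaction, oocyte, cell cycle and yolk lists to the left, and ribosomal and respiratory chain lists near 0.

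Vitellogenins, the yolk proteins made by the adult intestine, rose with age at 20°C and for the most part fell with age at 25°C. All 4 tested members were called lower (median -4.32). All 4 rose at 20°C, and 3 of them fell at 25°C. *vit-1* (chromosome X, 7727850 to 7732892) was at 158, 43.2, 157, 246 and 282 CPM in young and 1227, 1921, 1310, 1423 and 842 CPM in old animals at 20°C. At 25°C it was at 11932, 10324, 11057, 10531 and 11139 CPM in young and 1020, 932, 1016, 901 and 984 CPM in old animals. The highest 5 samples were those of young animals at 25°C, and replicate 2 was the lowest sample of young animals at 20°C. The interaction was -6.43 ± 0.49 (adjusted p = 1.4e-09). The most abundant, *vit-5*, was at 775, 27.4, 892, 1375 and 1756 CPM in young and 12690, 12918, 12237, 12630 and 12537 CPM in old animals at 20°C. At 25°C it was at 20885, 20594, 20855, 20104 and 20738 CPM in young and 11835, 10515, 11234, 11093 and 11841 CPM in old animals. Old animals at the 2 temperatures lay close together, and young animals at 25°C lay far above those at 20°C (interaction -4.57 ± 0.8, adjusted p = 4.9e-05). The interactions of *vit-3* and *vit-4*, close copies of *vit-5* that may share its fragments, were -4.07 ± 0.46 and -4.0 ± 0.64. *vit-2* and *vit-6* were not analysed here, because the tables marked them in at least 1 sample as having too many fragments to be quantified.

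Most muscle genes fell with age at both temperatures, and most fell further at 20°C. Of 28 genes of the body wall muscle 17 (60.7%) were called higher, beside 32.0% over all genes (median 1.29). Their median change with age was -3.18 at 20°C, with 24 falling, and -1.41 at 25°C, with 17 falling. The body wall myosin gene *unc-54* was at 4780, 5955, 4456, 4739 and 4973 CPM in young and 215, 290, 233, 236 and 151 CPM in old animals at 20°C. At 25°C it was at 1867, 1707, 1755, 1808 and 1662 CPM in young and 223, 210, 225, 209 and 219 CPM in old animals. The ranges of old animals at both temperatures overlapped, and those of young animals did not. The interaction was 1.45 ± 0.16 (adjusted p = 3.2e-08). The paramyosin gene *unc-15* had 1.51 ± 0.15, the myosin gene *myo-3* 2.16 ± 0.093, the integrin gene *pat-2* 2.47 ± 0.089 and the troponin I gene *tni-1* 2.87 ± 0.12. Of 8 pharyngeal genes 6 (75%) were called higher. Among them the pharyngeal myosins *myo-1* and *myo-2* had 1.65 ± 0.15 and 2.41 ± 0.12 and the pharyngeal organ identity factor *pha-4* 1.51 ± 0.17.

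Of 32 genes of synapses and transmitters 14 (43.8%) were called higher, beside 32.0% over all genes, 3 were called lower and 15 were not called. The median interaction was 0.98. With age 20 fell at 20°C, beside 36.6% over all genes, and 4 at 25°C, beside 16.4%. The list's summed level was 807 to 880 and 820 to 885 CPM in young and old animals at 20°C. At 25°C it was 803 to 824 and 779 to 819 CPM. These sums include *tdc-1*, described below, which rose from a mean of 30.3 to 303 CPM with age at 20°C. A level sum near constant therefore does not mean that most members were unchanged. The synaptic vesicle priming gene *unc-13* fell from 79.2 ± 5.94 to 18 ± 1.43 CPM at 20°C and was at 18.2 ± 1.64 and 15 ± 0.818 CPM at 25°C (interaction 1.86 ± 0.1), and the synaptotagmin gene *snt-1* had 1.5 ± 0.14. The clathrin adaptor gene *unc-11*, of high level, had -0.60 ± 0.063 and was not called. An exception was *tdc-1*, for the tyrosine decarboxylase that starts the synthesis of tyramine and octopamine in neurons and in gonadal sheath cells. It was at 33.4, 29.8, 30, 29.3 and 29.1 CPM in young and 302, 313, 303, 301 and 294 CPM in old animals at 20°C. At 25°C it was at 279, 262, 263, 260 and 296 CPM in young and 283, 328, 313, 287 and 279 CPM in old animals. All 5 young samples at 20°C lay below the rest, as for the oocyte genes (interaction -3.19 ± 0.071, adjusted p = 1.2e-21).

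Of 93 tested neuropeptide genes 49 (52.7%) were called higher, beside 32.0% over all genes, and 9 (9.68%) lower, beside 21.9% (median 1.07). Young animals at 20°C stood apart as the high group for 27 of them. *nlp-34*, a neuropeptide-like gene of the class of epidermal antimicrobial peptides, had another form. It was at 4.94, 6.5, 4.77, 7.76 and 6.25 CPM in young and 7.36, 4.49, 7.06, 6.62 and 6.54 CPM in old animals at 20°C. At 25°C it was at 0.32, 0.321, 0.169, 0.272 and 0.141 CPM in young and 6.02, 6.91, 6.58, 7.09 and 7.55 CPM in old animals. Only young animals at 25°C were low, under 0.4 CPM in every sample, and the other 3 groups overlapped. The interaction was 4.68 ± 0.27 (adjusted p = 9.7e-14). The related *nlp-33* had 2.37 ± 0.51 and the FMRFamide-like gene *flp-11* 2.14 ± 0.18. The insulin-like gene *ins-34* ran the other way at -6.44 ± 0.32, with 10.4 ± 1.06 CPM in old animals at 20°C, and *nlp-40*, an intestinal peptide gene of the defecation rhythm, had -0.34 ± 0.12 and was not called.

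The shares called in lists of immunity and detoxification are to be read beside the 32.0% of all genes called higher and the 21.9% called lower. Among 128 C-type lectin genes 52 (40.6%) were called higher and 29 (22.7%) lower, and the counts were 31 and 19 when genes with a listed interval over 50000 bases were left out. Those named for the smallest p were *clec-91*, *clec-87* and *clec-88*, with -4.49 ± 0.097, -4.33 ± 0.097 and -4.09 ± 0.099. *clec-87* stood at 54.6 ± 6.91 CPM in young animals at 20°C and at 1450, 1154 and 1529 CPM in the other groups. *clec-63*, of high level, had 1.12 ± 0.11. Among 34 genes for lysozymes and saposin-like antimicrobial proteins 7 (20.6%) were higher and 10 (29.4%) lower. The lysozyme genes *lys-2* and *lys-7* differed in sign, with 2.45 ± 0.11 and -1.40 ± 0.2, and *lys-7* rose with age from 105 to 782 CPM at 20°C and from 322 to 907 CPM at 25°C.

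Among 65 cytochrome P450 genes 13 (20%) were called higher and 21 (32.3%) lower, and the 3 named for the smallest p were *cyp-31A2*, *cyp-31A3* and *cyp-31A5*, with -2.69 ± 0.048, -1.98 ± 0.06 and -2.25 ± 0.063. *cyp-31A2* and *cyp-31A3*, which act in making the eggshell's lipid layer, are close copies. Among 62 UDP-glucuronosyltransferase genes 22 (35.5%) were higher and 8 (12.9%) lower, with *ugt-6*, *ugt-48* and *ugt-50* at 4.10 ± 0.17, 1.95 ± 0.11 and 1.72 ± 0.1. Among 35 glutathione S-transferase genes 11 (31.4%) were higher and 8 (22.9%) lower, which is close to the shares over all genes, with *gst-6* at 2.56 ± 0.15 and *gst-7* at -1.60 ± 0.2. Among 191 nuclear receptor genes 41 (21.5%) were higher and 13 (6.81%) lower, with *nhr-3* at 1.99 ± 0.12 and *nhr-8*, a receptor of xenobiotic and sterol responses, at 1.97 ± 0.13. *nhr-49*, a receptor of fat metabolism, had -0.35 ± 0.078 and was not called. Among 144 F-box genes of the *fbxa* family 59 (41%) were higher and 32 (22.2%) lower, with *fbxa-170* at -6.99 ± 0.16 and *fbxa-215* at -2.98 ± 0.085.

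Of 36 lipid genes 6 (16.7%) were called higher and 8 (22.2%) lower. The counts were 13 and 6 with upper-quartile scaling. The acyl-CoA dehydrogenase gene *acdh-1* and the enoyl-CoA hydratase gene *ech-6*, both of propionate breakdown, had 1.21 ± 0.14 and 1.04 ± 0.059. *acdh-1* fell with age from 5405 ± 505 to 349 ± 70.3 CPM at 20°C and from 2085 ± 91.8 to 311 ± 19.2 CPM at 25°C. The triglyceride lipase gene *atgl-1* had -1.58 ± 0.07, the fatty acid binding protein gene *lbp-1* -2.14 ± 0.087, and the desaturase gene *fat-2* was not called (-0.16 ± 0.082). Of 23 gut enzyme and intestinal genes 3 (13%) were higher and 7 (30.4%) lower. Those named for the smallest p were *thn-1*, described below (-5.15 ± 0.29), *thn-2* (-3.62 ± 0.19) and *cpr-3*. *thn-2* rose with age from 47.2 ± 7.57 to 309 ± 53 CPM at 20°C. The cathepsin B-like *cpr-3* rose from 4.24 ± 0.304 to 36.5 ± 1.2 CPM with age at 25°C and was at 13.1 ± 1.85 and 25.3 ± 1.39 CPM at 20°C (interaction 2.15 ± 0.12). The abundant proteases *asp-1* and *cpr-6* were not called, at -0.52 ± 0.085 and 0.10 ± 0.11.

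Of 20 tested heat shock genes 7 (35%) were called higher and 2 (10%) lower (median 0.26) and 11 were not called. The heat shock factor gene *hsf-1* had -1.25 ± 0.05, which was -0.94 with upper-quartile scaling, and the small heat shock gene *sip-1*, expressed in oocytes and embryos, had -3.69 ± 0.17. *hsp-12.2* had 1.86 ± 0.14. The abundant chaperone genes *daf-21*, for HSP90, and *hsp-1*, for HSC70, were not called, at -0.74 ± 0.11 and -0.43 ± 0.066. Of 31 longevity genes 5 were higher and 6 lower, which is 16.1% and 19.4% (8 and 6 with upper-quartile scaling, 2 and 6 without genes whose listed interval was over 50000 bases). In the insulin/IGF-1 pathway, the receptor gene *daf-2* and the PI3-kinase gene *age-1* were both called lower, at -1.45 ± 0.071 and -1.48 ± 0.07.

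Genes of basic cell machinery had few or no called interactions. Of 75 cytosolic ribosomal protein genes 2 were called higher (median -0.07), and their median change with age was -0.60 at 20°C and -0.65 at 25°C. *rpl-3* had an interaction of -0.12 ± 0.088, and *rpl-25.1* was called at 1.07 ± 0.11. None of 64 mitochondrial ribosomal, 28 respiratory chain and 30 proteasome genes was called by edgeR, DESeq2 or limma voom. At an unadjusted p under 0.05 there were 29, 12 and 29 of them with an interaction of under 1 in size. With upper-quartile scaling the ribosomal median was 0.24 and the mitochondrial ribosomal one 0.29, beside 0.38 over all genes. The proteasome median was -0.59, with *rpn-1* and *rpn-2* at -0.74 ± 0.071 and -0.69 ± 0.067.

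A small number of genes had interactions in which old animals stood apart, and their examples below were chosen from the called genes after their values were seen, apart from *thn-1* and *spp-8*. Old animals at 20°C were the high group for *thn-1* (chromosome IV, 12380080 to 12380833), which encodes a thaumatin family protein. It was at 2.45, 2.79, 2.13, 3.21 and 4.1 CPM in young and 65.3, 69.7, 68.5, 68.4 and 82.3 CPM in old animals at 20°C. At 25°C it was at 3.6, 6.3, 2.37, 3.63 and 3.23 CPM in young and 3.54, 2.19, 1.96, 2.65 and 2.72 CPM in old animals. Only the 5 old samples at 20°C were above 10 CPM, and the interaction was -5.15 ± 0.29 (adjusted p = 9.3e-13). The lysosomal lipase gene *lipl-1* was at 10.2, 5.11, 9.34, 15.7 and 13.7 CPM in young and 97.8, 89, 97.1, 91.4 and 122 CPM in old animals at 20°C. At 25°C it was at 5.6, 17.2, 7.48, 15.5 and 3.98 CPM in young and 24.5, 15.8, 15.7, 17.9 and 17.6 CPM in old animals. It rose with age by 3.20 ± 0.33 at 20°C, where the groups did not overlap, and its change at 25°C, where they did, was 0.88 ± 0.34 (interaction -2.32 ± 0.47, adjusted p = 0.00019). The alcohol dehydrogenase gene *sodh-1* and the cytochrome P450 gene *cyp-34A9* were also highest in old animals at 20°C, at 122 ± 18.6 and 75.5 ± 13.2 CPM, with interactions of -1.36 ± 0.39 and -1.81 ± 0.42. Old animals at 20°C were the low group for *pqn-24*, at 9.01 ± 0.854 CPM against means of 19.6 to 27.1 CPM in the other groups (interaction 1.70 ± 0.094).

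Old animals at 25°C were the low group for the saposin-like genes *spp-8* and *spp-1* and the acid sphingomyelinase gene *asm-2*. *spp-8* was at 59.9, 75.9, 62.2, 49.5 and 52 CPM in young and 98.8, 87.8, 102, 96.8 and 119 CPM in old animals at 20°C. At 25°C it was at 76, 93, 72.7, 84.7 and 71 CPM in young and 28.4, 30.9, 30.3, 25.8 and 25.6 CPM in old animals. Every old sample at 25°C lay below all other samples (interaction -2.25 ± 0.15, adjusted p = 1.1e-11). *asm-2* was at 21.3, 12, 22.5, 28.6 and 27.9 CPM in young and 33.8, 29.9, 31.5, 29.8 and 37.9 CPM in old animals at 20°C. At 25°C it was at 17.2, 20.6, 15.5, 19.2 and 13.2 CPM in young and 7.75, 7.01, 7.3, 7.05 and 6.79 CPM in old animals. Here too the old animals at 25°C were lowest with no overlap (interaction -1.80 ± 0.24, adjusted p = 6.2e-07), and *spp-1* had -1.56 ± 0.16. They were the high group for *mnp-1*, a gene of embryonic muscle cell migration, which was at 15.5, 25.1, 17.9, 16.6 and 14.5 CPM in young and 17.3, 16.2, 17.5, 15 and 15.5 CPM in old animals at 20°C. At 25°C it was at 20.1, 15.1, 14.9, 13.1 and 20.1 CPM in young and 38.5, 37.7, 37.5, 43 and 41.2 CPM in old animals. The other 3 groups overlapped, and the interaction was 1.39 ± 0.18 (adjusted p = 2.2e-07).

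Young animals at 25°C stood apart in a larger set. They were the low group for *hsp-70*, a heat-inducible chaperone gene, chosen here after its values were seen. It was at 25.8, 13.6, 30, 35.2 and 37.9 CPM in young and 36.1, 27.6, 31.8, 37.6 and 18.2 CPM in old animals at 20°C. At 25°C it was at 4.68, 4.7, 3.72, 4.18 and 3.61 CPM in young and 23.5, 27.6, 20.8, 29.9 and 26.2 CPM in old animals. The samples of the first, second and last of these groups overlapped, and all young samples at 25°C were under 5 CPM (interaction 2.53 ± 0.33, adjusted p = 1.2e-06). The transporter gene *pgp-6*, chosen in the same way, had 3.22 ± 0.55. The collagen gene *col-119* and the aldehyde dehydrogenase gene *alh-9*, also chosen after their values were seen, were high in that group, at 3012 ± 323 and 216 ± 15.1 CPM. Their interactions were -3.98 ± 0.73 and -1.32 ± 0.1.

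**Figure D5:**
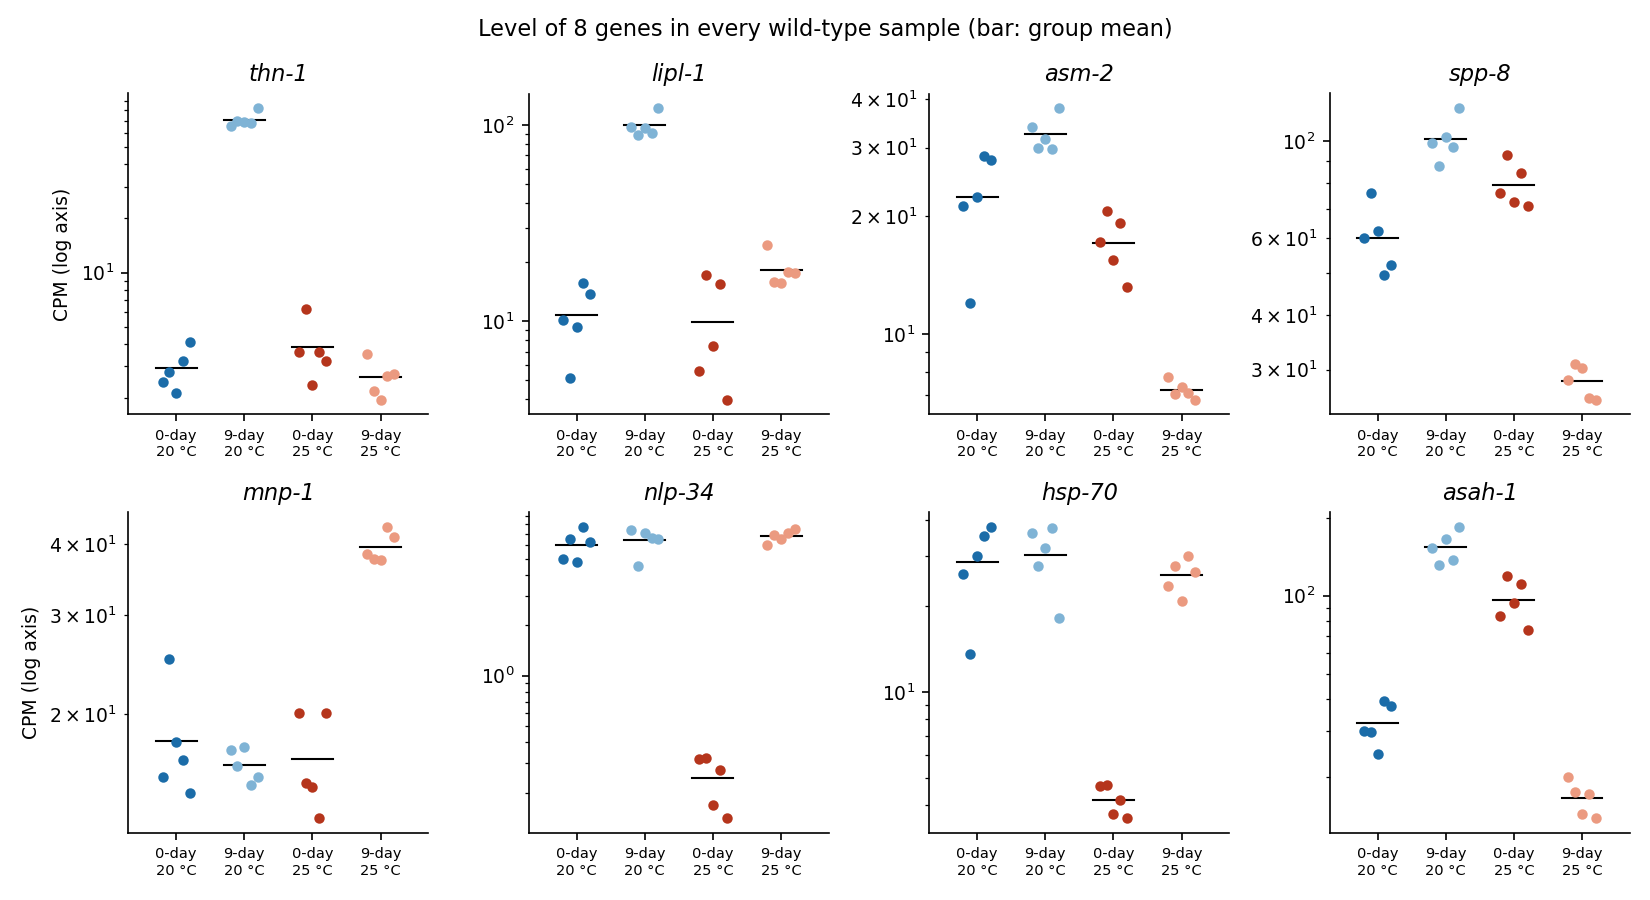
CPM of 8 genes (log axis) in each of the 20 wild-type samples, with a bar at the mean of each group of 5. *thn-1* and *lipl-1* are high in old animals at 20°C, *asm-2*, *spp-8* and *asah-1* are lowest in old animals at 25°C, *mnp-1* is highest there, and *nlp-34* and *hsp-70* are low in young animals at 25°C.

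The change with age was called in opposite directions at the 2 temperatures for 409 genes that fell at 20°C and rose at 25°C and for 84 that did the reverse. Beside the collagens and *vit-1*, the genes named from the 84 for the largest smaller change were *asah-1*, for an acid ceramidase, and the lectin gene *clec-223* (-7.48 ± 0.23). *asah-1* was at 29.9, 29.6, 24.5, 39.1 and 37.3 CPM in young and 153, 131, 166, 137 and 185 CPM in old animals at 20°C. At 25°C it was at 83.2, 119, 93.5, 111 and 73.5 CPM in young and 19.9, 17.4, 14.3, 17.1 and 13.8 CPM in old animals. It was highest in old animals at 20°C and lowest in old animals at 25°C, with changes of 2.27 ± 0.15 and -2.54 ± 0.16 (interaction -4.81 ± 0.22, adjusted p = 2.4e-13). Of the 409, those named in the same way were *cut-2*, *abu-14*, *pqn-29*, *ora-1*, *lpr-4* and *glf-1*, with changes of 4.28, 3.68, 4.05, 3.82, 3.34 and 3.17 at 25°C. *abu-14* was at 225, 351, 191, 335 and 236 CPM in young and 2.04, 1.01, 2.71, 1.57 and 1.29 CPM in old animals at 20°C. At 25°C it was at 0.2, 0.12, 0.422, 0.318 and 0.234 CPM in young and 3.69, 2.73, 3.19, 3.92 and 3.31 CPM in old animals. The level reached in old animals was under 4 CPM at both temperatures, and the rise at 25°C started from under 0.5 CPM (interaction 10.96 ± 0.43, adjusted p = 2.5e-14). *glf-1* encodes a UDP-galactopyranose mutase needed for surface glycans and *lpr-4* a lipocalin-related protein, and their means in young animals at 20°C were 79.1 ± 21.2 and 14.8 ± 2.65 CPM.

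The other genes named for a large negative interaction were *clec-266*, *flh-3*, *rgs-9*, *inx-2* and *ttr-50*, at -9.56 ± 0.28, -7.80 ± 0.11, -7.38 ± 0.15, -7.29 ± 0.15 and -7.20 ± 0.22. With *cav-1*, *col-135* and *clec-223* they make the 8 such genes. Each of these 5 was under 1 CPM on average in young animals at 20°C and over 20 CPM in each of the other 3 groups. They encode a lectin, a FLYWCH zinc-finger protein, a regulator of G-protein signalling, an innexin and a transthyretin-like protein.

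Markers of oocytes, yolk, sperm, molting and body wall muscle all differed between the 2 groups labelled as young adults, with no overlap of their summed levels. The summed sperm list of *spe* and *fer* genes was 841 to 956 CPM at 20°C and 247 to 268 CPM at 25°C, the molting list 1659 to 2988 and 750 to 852 CPM, the vitellogenins 180 to 2884 and 41744 to 45152 CPM and the body wall muscle list 16490 to 19584 and 7133 to 7729 CPM. In old animals the same sums were 191 to 210 and 201 to 214 CPM for the sperm list, 1019 to 1071 and 938 to 1023 CPM for molting, 14934 to 18000 and 14643 to 16220 CPM for the vitellogenins and 1655 to 2247 and 1912 to 2038 CPM for the muscle, at 20°C and 25°C. Much of the molting sums outside the young animals at 20°C came from *egg-6*, which ran against most of that list. Its means were 59.5 and 534 CPM in young and 555 and 625 CPM in old animals, at 20°C and 25°C. The part of these tissues in the interaction of other genes was not tested, nor was how far the stage at which the young animals were collected enters it.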

How the data were processed

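Whole wild-type N2 animals were sequenced after library preparation with a stranded mRNA kit. The deposited tables hold, for each gene and sample, estimated counts of fragments that the authors made by alignment to ce10 (HISAT2 in the methods, with Bowtie2 2.3.4 and Cufflinks 2.2.1 in the submitters' processing notes) and quantified with Cuffquant and Cuffdiff. These values were taken from the raw fragment column and rounded to whole numbers, since 71 genes had values that were not whole. Groups came from the labels, with 5 samples each. The tables number the replicates, and these numbers served only as names. The tables also held 5 samples of the mutant genotype, which were not used, and columns with the authors' fold changes and p-values, which were not used either. Of 41560 genes, 106 were left out because the tables marked them as failed or too deep in at least 1 sample, and 11 bear date-like names. Samples shared by several tables differed by over 0.5 fragments in at most 3 genes.

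Genes were filtered with filterByExpr (minimum count 10, minimum total 15), scaled with TMM and fitted with 1 mean per group by edgeR 4.0.16 (R 4.3.3), robust quasi-likelihood, with a prior count of 0.125. Tests were two-sided with Benjamini-Hochberg adjustment over the 15616 genes, with the thresholds of the report (adjusted p 0.05, log2 size 1), with the standard error from the F statistic. The procedure was tested on simulated data. DESeq2 1.42.0, limma 3.58.1, other scalings, filters and thresholds, leaving out each sample, a replicate block, a second source table and leaving out genes with listed intervals over 50000 bases (3645 of 17270 with an interval) were alternatives. The members and the gene lists were chosen with earlier results of these data known, and no set test was run. Named genes with a symbol, an interval of at most 50000 bases and at least 10 fragments in each group were the 8 with the largest positive and the 8 with the largest negative called interaction and the 6 in each direction with the largest opposite changes with age. Added to them were, per list, the 3 called members with the smallest p and the 2 of highest mean level, and the 4 most abundant called genes with no fragment in a group. The text gives those it describes, and says where a gene was chosen after its values were seen. Coordinates are the gene intervals of the tables in ce10, counted from 1. A bound for a gene at 0 used a floor of 3 fragments in the median sample of the group, which covers counting error only.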

Additional observations from a re-analysis of the deposited data

Results flagged for a closer look

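The change with age differed between the 2 temperatures for 4999 genes with a higher and 3427 genes with a lower interaction, by the test of the difference itself with edgeR.

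Samples that lay far from the other 4 of their group, by a Dixon ratio above 0.71, were found in 9 of 91 groups of 5 over the 23 genes given sample by sample. Chance flags about 1 in 20 groups, or 4.5 here. In replicate 2 of the young animals at 20°C *col-73* was at 6951 CPM against 3311 to 4159 in the other 4, and *cut-2* at 424 CPM against 200 to 257. In replicate 3 of the young animals at 25°C *cut-2* was at 0.338 CPM against 0.141 to 0.182. In replicate 4 of the young animals at 20°C *ssq-2* was at 159 CPM against 222 to 238, and in replicate 1 *tdc-1* was at 33.4 CPM against 29.1 to 30. In replicate 5 of the old animals at 20°C *thn-1* was at 82.3 CPM against 65.3 to 69.7 and *lipl-1* at 122 CPM against 89 to 97.8. In replicate 1 of the old animals at 25°C *lipl-1* was at 24.5 CPM against 15.7 to 17.9. In replicate 2 of the old animals at 20°C *nlp-34* was at 4.49 CPM against 6.54 to 7.36.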

How the results depend on the processing

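Under the alternatives, no called interaction among the 191 named genes turned its direction, nor did the changes with age of the genes named for opposite changes with age. For named genes without a call a turn of sign was not counted, and several of their interactions lay near 0. Changes with age of the other named genes were not recomputed. Of 6388 recomputed values 6359 stayed on their side of the threshold, 24 were no longer called and 5 were newly called. The interaction calls ranged from 4994 to 5101 higher and from 3428 to 3493 lower when 1 sample was left out. With at least 1 CPM in each group, where 10227 genes were tested, there were 2410 higher and 1625 lower interactions, 2136 and 3002 changes with age at 20°C, 391 and 1130 at 25°C, 1607 and 2498 changes with temperature in young and 103 and 185 in old animals. With no minimum size there were 6332 lower interactions, 6665 genes higher with age at 20°C, 5327 higher and 5719 lower at 25°C, and 6495 higher in young and 2983 higher and 3172 lower in old animals at 25°C. DESeq2 called 5200 higher and 3300 lower, and limma voom 5100 and 3463. With library size alone 65.2% of the called interactions were higher. Upper-quartile scaling called 5839 higher and 2438 lower, and moved the medians of lists near 0. Of 2368 recomputed counts of lists 97 moved by over 1.5 times, and of 1184 medians 128 moved by over their spread. The replicate block called 5011 higher and 3439 lower, of which 8397 were also called without it. Deviations from the group means correlated at -0.191 to 0.172 between same-numbered samples of different groups and at -0.253 to 0.244 between other-numbered ones. These correlations cannot decide whether the numbers pair the samples, because pairs over all 4 groups were pooled. A pairing of young and old samples at 1 temperature was not tested on its own. The causes of the shifts between the alternatives were not tested. At 24348289 fragments or more per sample, a group mean under 1 CPM rests on few fragments, and the size of an interaction that starts from such a mean is uncertain.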
